A study of Mus musculus with 10 samples.

Results

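The gamma-B protocadherins are 7 genes of the clustered protocadherin gamma array on mouse chromosome 18: Pcdhgb1, Pcdhgb2, Pcdhgb4, Pcdhgb5, Pcdhgb6, Pcdhgb7 and Pcdhgb8. They were taken by symbol from the deposited count table, which held 52632 genes, and all 7 passed the filter on low counts that left 17110 genes for testing. Poly(A) RNA had been sequenced from 10 neural stem cell cultures, each grown from the cortices of 1 mouse embryo at embryonic day 14.5 as an adherent monolayer with EGF and basic FGF. Of the 2 genotypes, E147A/+ embryos carried 1 Smchd1 allele with both the E147A mutation and a GFP tag (Smchd1 GFP-E147A/+), and Smchd1 +/+ embryos carried neither. Tag and mutation therefore cannot be told apart. SMCHD1 is a chromosomal ATPase best known for keeping genes of the inactive X silent, and it also acts on autosomal gene clusters, the protocadherins among them. Each genotype was represented by 2 female and 3 male embryos. All females also carried the XistdeltaA/+ allele, and the males were XY. Per the labels, every embryo had a Castaneus (Cast) father and a mother that was a 129/C57 F1. Litter 3 supplied both +/+ females, and the E147A/+ females were from litter 1 (replicate 1) and litter 2 (replicate 2), so in females litter and genotype cannot be told apart. Litters 1, 1 and 3 gave the E147A/+ males, and litters 4, 1 and 3 the +/+ males, in replicate order.

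Clustered protocadherins are cell-surface adhesion molecules of the cadherin family, most abundant in the developing nervous system. Each gene of the gamma array has its own promoter and its own variable first exon, which codes for the extracellular and transmembrane parts, and this exon is spliced to constant exons that the whole array shares. Single neurons typically use a few of the variable genes, chosen with a random component and separately on each parental chromosome, and the proteins meet like with like between cells, which underlies self-avoidance of neurites and contributes to neuronal survival. CTCF, cohesin and DNA methylation at the promoters take part in this choice. The gamma-A and gamma-B genes alternate along the array and differ in the sequence of their first exons, whereas the C-type genes at its end are used more broadly.

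The library totals ran from 20648916 to 44519020 counts, and no pair of replicates agreed within sampling noise (chi-square per gene 35.7 to 210). All 8 neural stem cell markers (Nes, Sox2, Pax6, Fabp7, Vim, Hes5, Sox9 and Slc1a3) stood at 1 CPM or more in every library. CPM is the count scaled to library size (counts per 1000000), here with TMM factors. Their summed level was 4900 to 6830 CPM in E147A/+ and 4760 to 6680 CPM in +/+. Markers of neurons, which also use these genes, summed to 560 to 748 CPM in E147A/+ and 617 to 1000 CPM in +/+, with 4 of 6 at 1 CPM or more in every library. Markers of the oligodendrocyte lineage summed to 1230 to 1870 and 1720 to 1800 CPM (3 of 6), and those of astrocytes to 36.1 to 118 and 37.9 to 78.6 CPM (2 of 4). Fibroblast or pericyte markers summed to 2.29 to 11.0 and 2.72 to 9.35 CPM (1 of 4). Endothelial markers reached at most 3.75 CPM together, and the microglial markers Aif1, Cx3cr1, Csf1r and C1qa were each below 1 CPM in all libraries. The part of these other cells in the results below was not tested. In bulk cultures, fewer cells using a gene and less RNA per cell cannot be told apart. Smchd1 itself, counted from both alleles together, was at 120.0 and 115.9 CPM in female E147A/+ and at 139.8 and 171.7 CPM in female +/+. In males it was at 121.4, 127.9 and 94.2 CPM in E147A/+ and at 122.5, 150.9 and 191.8 CPM in +/+, with overlap between the genotypes. A count per gene does not show the mutation.

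On the GRCm38 assembly the 7 genes start between positions 37680233 (Pcdhgb1) and 37761801 (Pcdhgb8) of chromosome 18, all on the same strand, and all end at 37841870 or 37841873, where the last shared constant exon ends. Pcdhgb2 starts at 37689828, Pcdhgb4 at 37720369, Pcdhgb5 at 37731009, Pcdhgb6 at 37742094 and Pcdhgb7 at 37751600. Their identifiers are ENSMUSG00000103037 for Pcdhgb1, ENSMUSG00000102748 for Pcdhgb2, ENSMUSG00000103585 for Pcdhgb4, ENSMUSG00000103749 for Pcdhgb5, ENSMUSG00000103088 for Pcdhgb6, ENSMUSG00000104063 for Pcdhgb7 and ENSMUSG00000103081 for Pcdhgb8. The coordinates in the table equalled those of GENCODE M21 for all 22 gamma genes. GENCODE lists 6 of the members as protein coding and Pcdhgb8 as a polymorphic pseudogene, and RefSeq lists Pcdhgb8 as a transcribed pseudogene. The first exon of the full transcript, the one spliced to the constant exons, spans 2499 bases (Pcdhgb8) to 2607 bases (Pcdhgb1). It has a GC content of 52.1% to 54.0% and overlaps no other gene on its strand. Pcdhgb7 overlaps the antisense gene Gm26672, which had 3 to 20 counts per library where Pcdhgb7 had 105 to 333.

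How far the reads of the members can be told apart follows from these exons. Over the 21 pairs of members, the first exons were 69.8% to 81.2% identical (median 71.7%), with Pcdhgb4 and Pcdhgb5 the most alike. The libraries were read as 80-base paired ends. Of all 80-base windows in a member's first exon, 0.596% (Pcdhgb7) to 13.0% (Pcdhgb2) were also found in the first exon of another gamma gene, with 12.7% for Pcdhgb1, 6.28% for Pcdhgb8, 5.55% for Pcdhgb6, 4.86% for Pcdhgb4 and 4.81% for Pcdhgb5. Counts of Pcdhgb1 and Pcdhgb2 are thus the most open to reads shared with a near copy. Reads in the constant exons fit every gamma gene, and the sources used here do not say how they were counted. The C-type gene Pcdhgc3 held 250 to 451 CPM against 2.16 to 18.1 CPM for single members, so reads from the shared exons had not been given to each gene alike.

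All 7 members were detected in every library, at 64 to 751 counts. Together they stood at 44.2 and 64.7 CPM in female E147A/+, at 74.0 and 33.5 CPM in female +/+, at 45.5, 45.0 and 47.4 CPM in male E147A/+, and at 62.6, 44.6 and 44.1 CPM in male +/+. The summed level overlapped between the genotypes in both sexes. The highest and the lowest of the 10 sums were those of the 2 female +/+ libraries, although both came from litter 3. Gamma-B made up 8.14% to 12.9% of all gamma counts, most of which belonged to Pcdhgc3, and 29.7% to 46.0% of the gamma counts without Pcdhgc3.

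Levels of different members were compared per kilobase of exon, over the 5 libraries of +/+. By the exonic length of the whole gene, Pcdhgb8 was highest at 2.25 ± 1.29 CPM per kilobase (SD, n = 5), followed by Pcdhgb6 at 1.82 ± 0.215, Pcdhgb2 at 1.53 ± 0.523 and Pcdhgb7 at 1.44 ± 0.589. Pcdhgb5 (1.14 ± 0.346), Pcdhgb4 (1.12 ± 0.401) and Pcdhgb1 (0.762 ± 0.245) were lower. No neighbours in this order differed by more than the larger of their SDs. With the first exon of the full transcript as the length, Pcdhgb8 and Pcdhgb6 stayed first and second and Pcdhgb4 and Pcdhgb1 last. Pcdhgb5 then moved from rank 5 to rank 3. In E147A/+, the per-kilobase level by whole-gene length was highest for Pcdhgb8 (2.02 ± 1.18) and Pcdhgb2 (1.99 ± 0.457), and Pcdhgb6 stood at 0.887 ± 0.202, next to Pcdhgb7 at 0.870 ± 0.255.

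The genotype comparison asks whether 1 mutant copy of Smchd1 alters the use of these genes. With edgeR's quasi-likelihood test and Benjamini-Hochberg adjustment over all 17110 genes, 0 of the 7 members were called at an adjusted p of 0.05 over both sexes, where 0.0818% of all genes did. At an unadjusted p under 0.05 the count was 1 of 7 (Pcdhgb6), where 5.90% of all genes passed. limma-voom, run with sample quality weights, also called 0 members, where it called 29 of 17110 genes. DESeq2 called 1, again Pcdhgb6, where it called 0.662% of the genes it tested. At an unadjusted p under 0.05, limma-voom had 3 members (Pcdhgb2, Pcdhgb4 and Pcdhgb6), where 1613 of 17110 genes passed. DESeq2 had 2 members there (Pcdhgb6 and Pcdhgb7), where 1248 of 17066 genes passed. The members' median log2 fold change, E147A/+ over +/+, was -0.06, against -0.01 over all genes. It hides estimates on both sides of 0, from -1.0 to 0.48, with 3 positive and 4 negative (52.0% of all genes were negative).

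**Figure D1:**
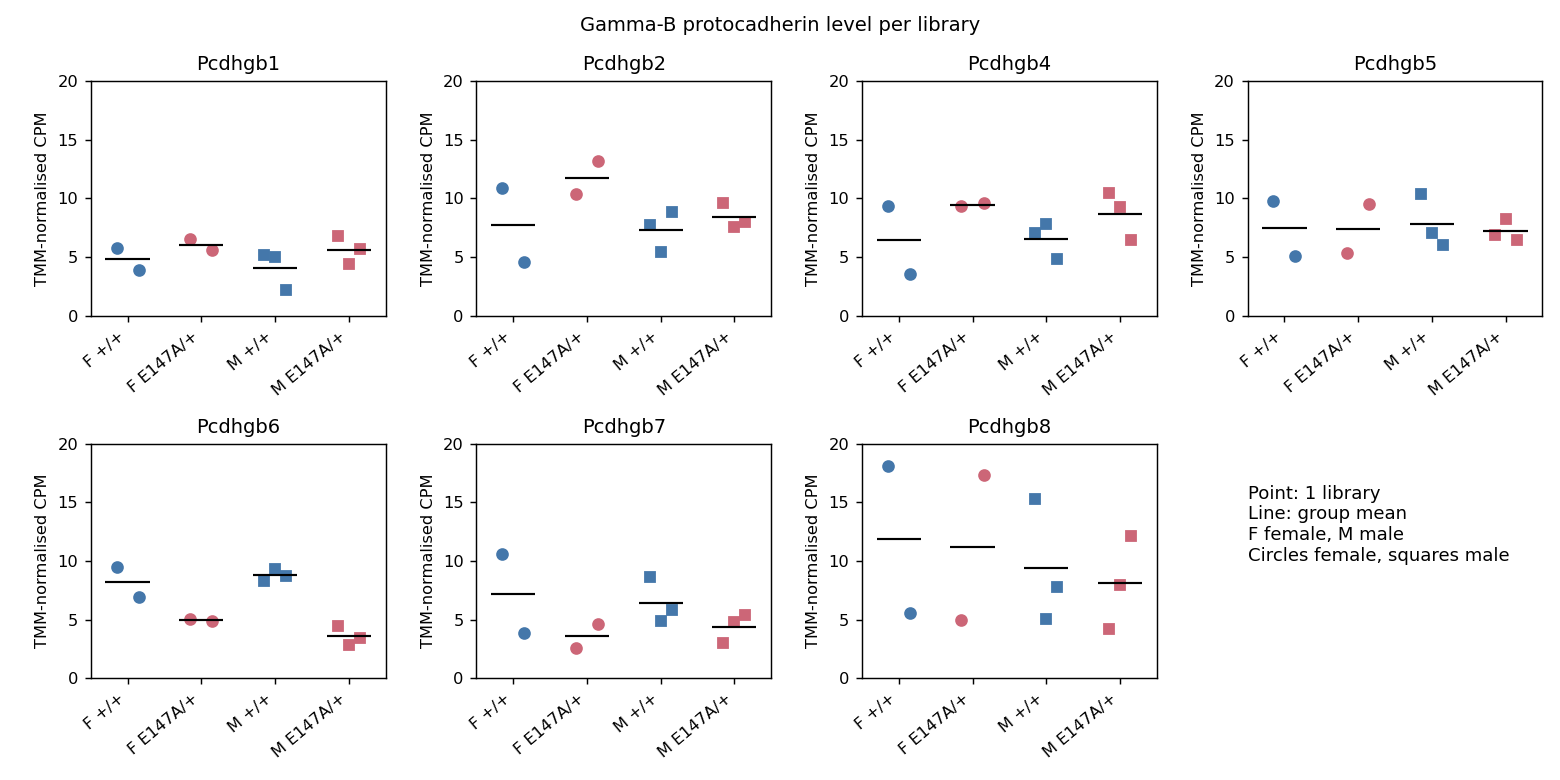
Level of each gamma-B gene in TMM-normalised CPM (vertical axis, linear) by sex and genotype (horizontal axis); each point is 1 library and each line a group mean. Pcdhgb6 is the only member whose E147A/+ libraries, at 2.88 to 5.08 CPM, all lie below every +/+ library of both sexes, at 6.94 to 9.46 CPM.

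Pcdhgb6 was the member with the clearest separation. In females it stood at 5.08 and 4.85 CPM in E147A/+ and at 9.46 and 6.94 CPM in +/+. In males it stood at 4.50, 2.88 and 3.46 CPM in E147A/+ and at 8.31, 9.30 and 8.71 CPM in +/+. The highest of the 5 E147A/+ libraries was below the lowest of the 5 +/+ libraries, and no other member was separated in either sex. Separation in both sexes with E147A/+ lower was found for 1.27% of all genes, in females alone for 19.3% and in males alone for 3.96%. Over both sexes the estimate in log2 was -1.0 (SE 0.22), for which edgeR's quasi-likelihood test gave an unadjusted p of 0.001002 and an adjusted p of 0.297. In males alone it was -1.28 (SE 0.28, adjusted p 0.561 in edgeR), and in females alone -0.72 (SE 0.33, adjusted p 0.964 in edgeR). The effect did not pass a test of a difference between the sexes (interaction 0.56 in log2, SE 0.43, edgeR adjusted p 0.999). In that comparison 0.00% of all genes passed and 314 genes (1.84%) had an unadjusted p under 0.05. Without female +/+ replicate 2 the interaction estimate of Pcdhgb6 was 0.351 in log2.

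The call for Pcdhgb6 depended on the tool, while its direction did not. DESeq2 gave nearly the same log2 fold change, -1.0 over both sexes with an adjusted p of 0.000299, and -1.27 in males with an adjusted p of 0.000594, in a comparison where it called 0.299% of the genes. limma-voom gave -0.98 with an adjusted p of 0.163 over both sexes. In both male litters that held both genotypes the difference in log2 CPM was negative, -1.36 in litter 1 (2 E147A/+ libraries, 1 +/+) and -1.33 in litter 3 (1 of each). Leaving out each library in turn moved the estimate over both sexes between -1.10 and -0.87. Within groups, Pcdhgb6 was also the least variable member, with an SD of 0.23 in log2 CPM where the median of 939 genes of like level was 0.47.

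Pcdhgb7, the next gamma-B gene in the array, stood at 2.61 and 4.67 CPM in female E147A/+ and at 10.6 and 3.85 CPM in female +/+. In males it stood at 3.05, 4.79 and 5.39 CPM in E147A/+ and at 8.62, 4.93 and 5.84 CPM in +/+. In each sex 1 E147A/+ library lay above the lowest +/+ library, and in each sex +/+ replicate 1 was far above the rest. Over both sexes its estimate in log2 was -0.77 (SE 0.35, edgeR unadjusted p 0.0548, adjusted p 0.821). Without female +/+ replicate 1 it was -0.31, and without the low female +/+ replicate 2 it was -1.05.

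Pcdhgb8, the last gamma-B gene and the annotated pseudogene, was the most variable member. It stood at 4.99 and 17.4 CPM in female E147A/+, at 18.1 and 5.60 CPM in female +/+, at 4.21, 7.94 and 12.1 CPM in male E147A/+, and at 15.3, 5.07 and 7.80 CPM in male +/+. Each group held a high library and a low one, a spread of 4.31-fold over the 10 libraries. The within-group SD was 0.96 in log2 CPM, above that of 89.4% of the 939 genes of like level. The log2 fold change between the genotypes was -0.15 (SE 0.50, edgeR adjusted p 0.955). It took either sign with single libraries left out, at 0.40 without female +/+ replicate 1 and -0.71 without female E147A/+ replicate 2.

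The 3 gamma-B genes nearest the start of the array had positive estimates in both sexes, none past the threshold. With litter as a covariate the female estimates were -0.0528 for Pcdhgb1, 0.67 for Pcdhgb2 and -0.11 for Pcdhgb4. Females alone cannot separate litter from genotype, so that fit took the difference between litters 1 and 3 from the male libraries. Litter 2 held only female E147A/+ replicate 2 and litter 4 only male +/+ replicate 1, so these libraries carried no weight in it. The female estimates with litter thus rest on replicate 1 alone for E147A/+. Pcdhgb1 stood at 6.51 and 5.59 CPM in female E147A/+, at 5.76 and 3.93 CPM in female +/+, at 6.80, 4.42 and 5.65 CPM in male E147A/+, and at 5.17, 4.98 and 2.16 CPM in male +/+. Pcdhgb2 stood at 10.4 and 13.2 CPM, at 10.9 and 4.60 CPM, at 9.59, 7.57 and 7.98 CPM, and at 7.76, 5.40 and 8.81 CPM in these 4 groups in turn. For both genes the genotypes overlapped in both sexes, with the lowest level in a +/+ library (male replicate 3 for Pcdhgb1, female replicate 2 for Pcdhgb2). Their log2 fold changes over both sexes were 0.39 (SE 0.30) and 0.40 (SE 0.27), both with an adjusted p of 0.824 in edgeR. Both sizes rested on single libraries: that of Pcdhgb1 was 0.235 without male +/+ replicate 3, and that of Pcdhgb2 was 0.152 without female +/+ replicate 2 and 0.783 without female +/+ replicate 1.

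Pcdhgb4 stood at 9.31 and 9.57 CPM in female E147A/+, at 9.33 and 3.52 CPM in female +/+, at 10.4, 9.24 and 6.42 CPM in male E147A/+, and at 7.04, 7.84 and 4.83 CPM in male +/+. In females the difference rested on the single low +/+ library, since +/+ replicate 1 lay between the E147A/+ libraries, and in males the genotypes overlapped as well. The log2 fold change was 0.48 (SE 0.30, edgeR adjusted p 0.824). It was 0.211 without female +/+ replicate 2, 0.920 without female +/+ replicate 1 and 0.124 with litter as a covariate. Pcdhgb5, in the middle of the array, stood at 5.31 and 9.52 CPM in female E147A/+ and 9.81 and 5.06 CPM in female +/+, and at 6.91, 8.20 and 6.42 CPM in male E147A/+ and 10.4, 7.04 and 6.01 CPM in male +/+. The group means were 7.42 CPM in E147A/+ and 7.43 CPM in +/+ for females and 7.18 and 7.80 CPM for males, with a log2 fold change of -0.06 (SE 0.28, edgeR adjusted p 0.969).

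Placed in array order, the estimates of the gamma-B genes went from positive to negative. Spearman's rho between array position and log2 fold change was -0.71 over both sexes, -0.79 in females and -0.82 in males (n = 7 genes). Females and males share no library, whereas neighbouring genes share libraries, exons and near-identical stretches, so these values describe the array and are not a test. The litter fit rests on replicate 1 alone for female E147A/+. With litter as a covariate, rho was -0.71 over both sexes and -0.75 in females but -0.39 in males. Leaving out single libraries, it reached -0.32 in females (without female E147A/+ replicate 1) and -0.54 in males (without E147A/+ replicate 1 or +/+ replicate 1). These alternatives were chosen after seeing the data. In the male litters that held both genotypes, the difference in log2 CPM was negative for Pcdhgb6 and for Pcdhgb7 (-0.37 in litter 1 and -0.12 in litter 3) but positive for Pcdhgb8 (0.19 and 0.64). Of the first 3 genes, Pcdhgb1 (0.14 and 1.38) and Pcdhgb4 (0.32 and 0.41) were positive in both litters and Pcdhgb2 in litter 1 only (0.66 and -0.14). The 12 gamma-A genes interleaved with them gave -0.83, and the 19 variable genes together -0.75. Pcdhgb6 sits between Pcdhga9 (-0.34, SE 0.24) and Pcdhga10 (-0.40, SE 0.31), whose estimates were smaller. The order was not even: Pcdhgb4 (0.48) lay next to Pcdhga8 (-0.84, SE 0.28), and Pcdhgb8 (-0.15) next to Pcdhga12 (-1.16, SE 0.26).

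**Figure D2:**
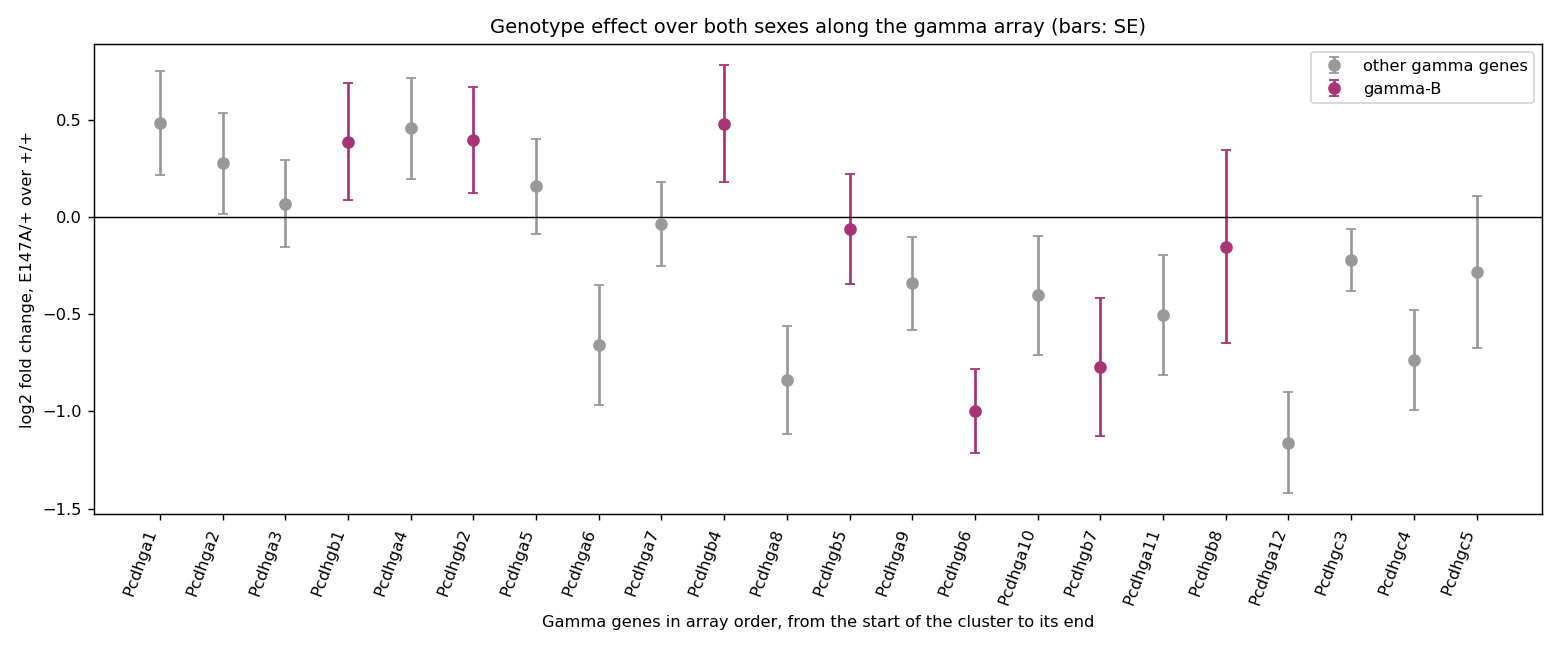
Log2 fold change of E147A/+ over +/+ across both sexes (vertical axis; bars are SE) for the 22 gamma genes in array order (horizontal axis), with gamma-B genes in purple and the others in grey. The first 3 gamma-B genes lie at 0.39 to 0.48 and the last 3 at -1.0 to -0.15.

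The makeup of the gamma-B counts gives the same values as shares within a library. The genes were grouped after their single values had been seen, and the sum holds Pcdhgb6, so the shares describe those values again and add no support to the order. Pcdhgb1, Pcdhgb2 and Pcdhgb4 together held 59.3% and 43.7% of the summed gamma-B CPM in female E147A/+, and 35.1% and 36.0% in female +/+. In males they held 59.0%, 47.1% and 42.3% in E147A/+ and 31.9%, 40.9% and 35.8% in +/+. All 5 E147A/+ libraries lay above all 5 +/+ libraries, with means of 51.5% ± 11.0 and 35.5% ± 0.593 (SD, n = 2 each) in females and 49.4% ± 8.58 and 36.2% ± 4.50 (n = 3 each) in males. With Pcdhgb5 counted among the first genes, the shares were 71.3% and 58.5% against 48.4% and 51.1% in females, and 74.1%, 65.4% and 55.8% against 48.5%, 56.7% and 49.4% in males, where the genotypes then overlapped. With Pcdhgb6 left out of the sum, also chosen after seeing the data, the first 3 genes held 67.0% and 47.3% against 40.3% and 45.4% in females, and 65.4%, 50.4% and 45.6% against 36.8%, 51.7% and 44.6% in males, where the genotypes again overlapped. The share of Pcdhgb6 alone was 11.5% and 7.50% against 12.8% and 20.7% in females, and 9.89%, 6.39% and 7.29% against 13.3%, 20.9% and 19.7% in males, with no overlap.

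**Figure D3:**
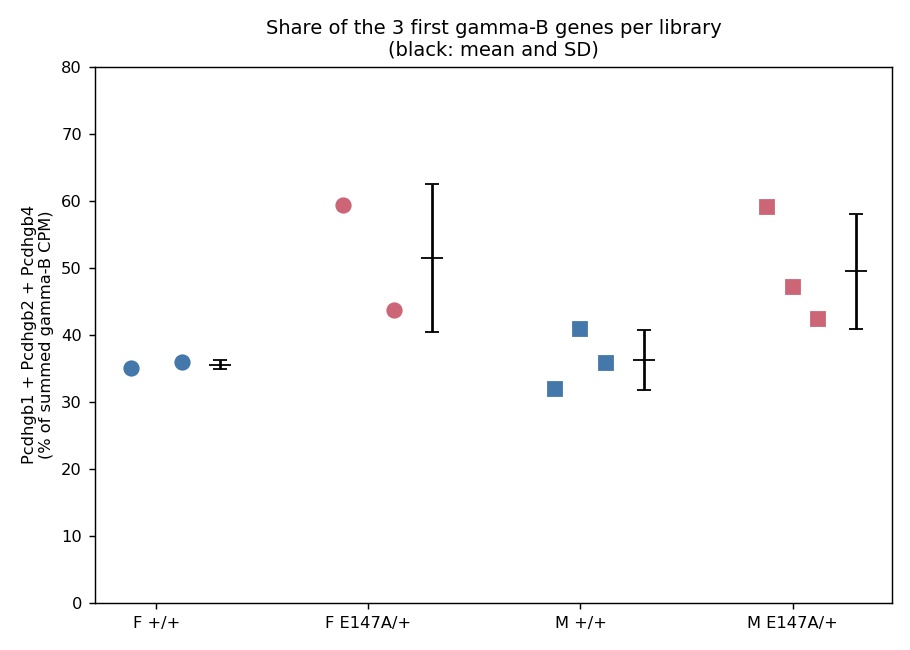
Summed CPM of Pcdhgb1, Pcdhgb2 and Pcdhgb4 as a percentage of the summed gamma-B CPM (vertical axis) by sex and genotype; coloured points are libraries and black marks the mean with its SD. E147A/+ libraries lie at 42.3% to 59.3% and +/+ libraries at 31.9% to 40.9%, with Pcdhgb6 in the sum.

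Between the sexes, in +/+ libraries alone, edgeR called 0 of the 7 members at an adjusted p of 0.05, where 0.0292% of all genes did, and 0 had an unadjusted p under 0.05, where 1.65% did. DESeq2 and limma-voom called 0 members as well, where each called 5 genes, of 17066 and 17110 in turn. The log2 fold changes of female over male +/+ ran from -0.10 (Pcdhgb6) to 0.33 (Pcdhgb8). In females alone, 0 of 7 members passed the adjusted threshold between genotypes (0.0117% of all genes) and 0 the unadjusted one (4.36%). There DESeq2 and limma-voom also called 0 members, where DESeq2 called 0.275% of its genes and limma-voom 2 of 17110. In males alone, edgeR called 0 of 7 (0.0234% of all genes), with 1, Pcdhgb6, at an unadjusted p under 0.05 (3.44%). There limma-voom called 0 members and 9 of 17110 genes, and DESeq2 called 1 member, Pcdhgb6, where it called 0.299% of its genes.

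Counts assigned to the 129 or the Cast allele were deposited for the 4 female libraries. Although every embryo was labelled as having a Castaneus father, only 2 of the 4 libraries had a Cast share near 50% around this locus, and the other 2 had almost no Cast counts. Over 71 to 77 genes within 5 Mb of the gamma array, clustered protocadherins left out, the median Cast share was 47.8% in female E147A/+ replicate 2 and 46.8% in female +/+ replicate 1. It was 0.264% in female E147A/+ replicate 1 and 0.314% in female +/+ replicate 2. The gamma-B genes followed their surroundings: in these last 2 libraries, 1 of 789 and 3 of 641 allelic gamma-B counts were Cast. The locus therefore held 1 Cast haplotype in 1 library of each genotype and none in the other. With 1 such library per genotype, no test of an allelic difference between the genotypes was possible. Per the labels the other chromosome comes from a 129/C57 mother, so a count assigned to 129 need not come from a 129 haplotype.

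In the 2 libraries with both haplotypes, gamma-B RNA came from both, and the share differed from gene to gene. Summed over the members, Cast counts made up 54.4% (95% Wilson interval 51.5 to 57.2) in E147A/+ and 54.3% (51.4 to 57.3) in +/+. The other 15 gamma genes gave 46.3% and 44.4%. These intervals, and all that follow, cover counting error only. Pcdhgb7 had the highest Cast share, 68.2% (60.9 to 74.7) of 173 allelic counts in E147A/+ and 70.1% (64.3 to 75.3) of 264 in +/+. Pcdhgb8 was above 50% in both, at 55.4% (50.7 to 60.1) of 426 counts and 59.5% (53.9 to 64.9) of 304. Pcdhgb4 was lowest in E147A/+, at 42.5% (31.8 to 53.9) of 73 counts, and stood at 37.3% (27.3 to 48.6) of 75 in +/+.

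Pcdhgb6 was lowest in +/+, where the Cast share was 29.9% (23.2 to 37.5) of 154 counts, against 42.6% (33.7 to 52.0) of 108 in E147A/+. Its counts were 108 from 129 and 46 from Cast in +/+, and 62 and 46 in E147A/+. CPM of allele-assigned counts is per library total without TMM factors, so it is on another scale than the levels above. On it these counts were 3.42 and 1.39 for the 129 allele and 1.46 and 1.03 for Cast, in +/+ and E147A/+ in turn. In the 2 libraries without a Cast haplotype, Pcdhgb6 had 2.56 CPM of 129 counts in E147A/+ and 3.37 CPM in +/+. Pcdhgb5 had a Cast share of 60.0% (51.6 to 67.9) and 57.5% (47.0 to 67.3), Pcdhgb1 of 50.3% (42.9 to 57.7) and 44.1% (35.8 to 52.8), and Pcdhgb2 of 47.8% (38.9 to 56.9) and 58.5% (47.7 to 68.6), in E147A/+ and +/+. For each of the 7 members the intervals of the 2 libraries overlapped. Across the members the 2 libraries ranked the Cast shares alike (Pearson's r 0.866, Spearman's rho 0.786, n = 7 genes). They share the positions that tell the alleles apart, so this is a description.

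**Figure D4:**
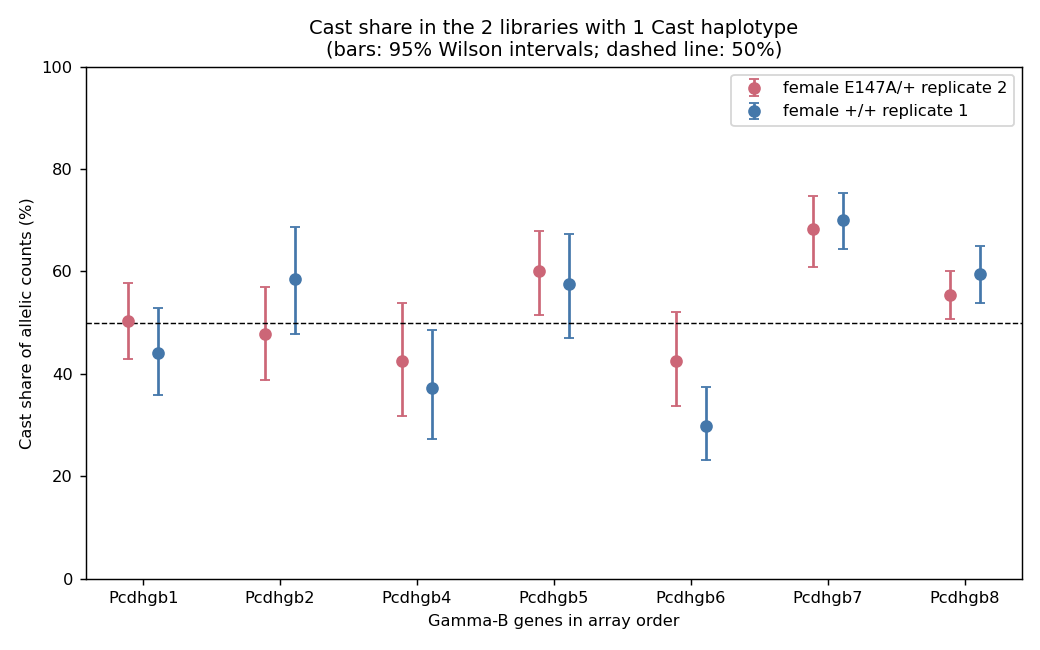
Cast share of the allele-assigned counts in percent (vertical axis) for the 7 gamma-B genes in array order (horizontal axis), in female E147A/+ replicate 2 and female +/+ replicate 1; bars are 95% Wilson intervals and the dashed line is 50%. Pcdhgb7 lies at 68.2% and 70.1%, and Pcdhgb6 at 42.6% and 29.9%.

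The level of Pcdhgb8 divided the female libraries by haplotype and not by genotype, a comparison made after its values had been seen. It was 3.5-fold higher in the E147A/+ library with 1 Cast haplotype than in the one with none, and 3.2-fold higher in the +/+ pair. Of all 17110 genes tested, 1.46% were more than 2-fold higher with the Cast haplotype in both genotypes, and Pcdhgb8 was the only gamma-B member among them. Its 129 counts alone, on the scale without TMM factors, stood at 4.27 and 3.90 CPM in the libraries with 1 Cast haplotype, against 2.42 and 3.07 CPM in those with none, and its Cast counts added 5.30 and 5.74 CPM. The remaining members had ratios of 0.859 (Pcdhgb1) to 1.79 (Pcdhgb5 and Pcdhgb7) in E147A/+ and of 1.36 (Pcdhgb6) to 2.75 (Pcdhgb7) in +/+. In the +/+ pair all 7 members were higher in the library with the Cast haplotype, as was Pcdhgc3, by 1.52-fold. The same split pairs libraries whose deviations from their group means had a correlation of 0.297 over all genes, so the haplotype at this locus cannot be told apart from whatever else the 2 libraries share. The male libraries had no allelic counts, and their Pcdhgb8 levels of 4.21 to 15.3 CPM could not be assigned to a haplotype.

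**Figure D5:**
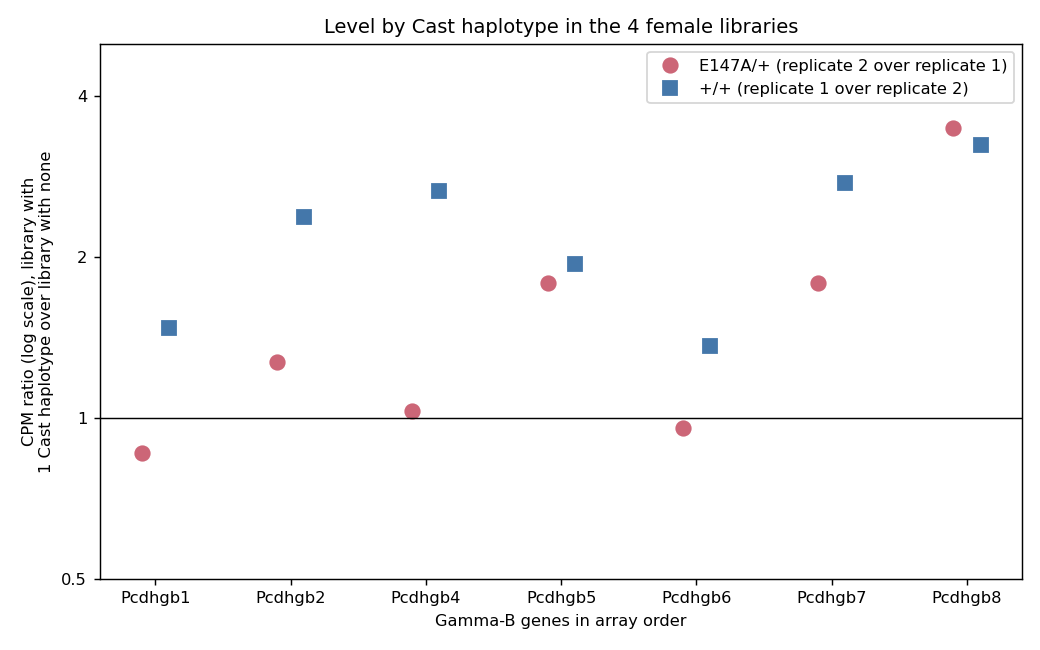
Ratio of CPM in the female library with 1 Cast haplotype at the locus over the library with none (vertical axis, log scale), for each gamma-B gene in array order, within E147A/+ (circles) and within +/+ (squares). Pcdhgb8 lies at 3.5 and 3.2, the only gene above 2 in both.

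In edgeR, the lists of related genes gave no calls. Of the 15 other gamma genes, 0 passed the adjusted threshold in edgeR over both sexes, where 0.0818% of all genes did. An unadjusted p under 0.05 was found for 3, where 5.90% of all genes had one. The median log2 fold change of the 15 was -0.28. The lowest p belonged to Pcdhga12 (-1.16, SE 0.26, edgeR adjusted p 0.328), at 2.08, 2.43, 2.20, 1.47 and 2.73 CPM in the E147A/+ libraries and 5.92, 4.70, 4.21, 4.65 and 4.72 CPM in the +/+ libraries, females first. Like Pcdhgb6, it did not overlap between genotypes in either sex. Next came Pcdhga8 (-0.84, SE 0.28, adjusted p 0.728 in edgeR), whose genotypes overlapped in males. The last of the 3 was the C-type gene Pcdhgc4 (-0.735, SE 0.26, edgeR adjusted p 0.750). It too did not overlap in either sex, at 3.82 to 4.53 CPM in E147A/+ and 4.90 to 9.08 CPM in +/+. Such separation with E147A/+ lower was found for 1.27% of all genes. Of 18 tested (19 listed) flanking genes outside the clusters, 0 passed (0.0818% of all genes) and 1 had an unadjusted p under 0.05 (5.90%). That gene was Taf7, which codes for a subunit of the general transcription factor TFIID and lies just before the gamma array (37640491 to 37644204). It stood at 10.1 to 12.5 CPM in the 5 E147A/+ libraries and at 13.9 to 24.1 CPM in the 5 +/+ libraries (log2 fold change -0.68, SE 0.18, edgeR adjusted p 0.547). Spry4, an inhibitor of receptor tyrosine kinase signalling, was next (0.29, SE 0.14, edgeR adjusted p 0.821).

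Among 26 tested regulators of cluster architecture and repression, such as Ctcf, Rad21, Setdb1 and Dnmt3b, 0 passed in edgeR (0.0818% of all genes). An unadjusted p under 0.05 was found for 1 (5.90% of all genes), Smchd1 (log2 fold change -0.42, SE 0.15, edgeR adjusted p 0.786). The next was Stag1, a cohesin subunit (-0.46, SE 0.23, edgeR adjusted p 0.821). The list's median was -0.05. Among 16 tested (17 listed) partners through which gamma protocadherins are known to act, 0 passed (0.0818% of all genes). An unadjusted p under 0.05 was found for 0 as well (5.90% of all genes), and the median was -0.09. The lowest p belonged to Adam10, the protease that sheds their extracellular part (-0.39, SE 0.23), and Axin1, a Wnt pathway scaffold (-0.20, SE 0.12), both with an edgeR adjusted p of 0.821.

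The genes most like the summed gamma-B level over the 10 libraries, by Pearson's r of log2 CPM among 17053 genes outside the clustered protocadherins, were Tecpr1 (r 0.945, Spearman's rho 0.964), Prr14 (0.934 and 0.927), Brd2 (0.916 and 0.782), Dhx8 (0.910 and 0.891) and Caskin2 (0.904 and 0.782). They were picked as the highest of many, and the libraries they share differ in depth and litter. Their own log2 fold changes between genotypes lay between -0.11 (Caskin2) and 0.04 (Prr14), each with an edgeR adjusted p of 0.895 or more.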

How the data were processed

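Values are raw counts of reads per gene, deposited by the authors in 1 table with 10 library columns. Per the file headers, the 4 female libraries have further columns of counts for their 129 and Cast alleles. The submitters' processing notes name Trim Galore 0.4.4, HISAT2 2.0.5, featureCounts, R 3.5.1, edgeR 3.24.0 and the builds GRCm38 and mm10, without the role of each. Per the labels' protocols, libraries were stranded poly(A) libraries. Whether counting used the strand, how reads that fit several genes were treated and how alleles were assigned is not given in the sources used here. Reads that fit several gamma genes could move counts between members.

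From the counts, genes were kept by filterByExpr (17110 of 52632), scaled by TMM and tested with edgeR 4.0.16 (R 4.3.3) by its quasi-likelihood F test, with 1 mean for each combination of sex and genotype, 10 libraries and 6 residual degrees of freedom. Benjamini-Hochberg adjusted p-values were read at 0.05. An SE is the size of the estimate over the root of its F. CPM values are shown with SDs over libraries, each from 1 embryo. Correlations and spreads used log2 CPM with a prior count of 0.5. Array position, gene type and exon length came from GENCODE M21. A library was taken to hold 1 Cast haplotype where flanking genes with at least 20 allelic counts had a median Cast share of 35% to 65%. As alternatives, DESeq2 1.42.0, limma-voom with sample quality weights (limma 3.58.1), RLE normalisation, other filters, fits by sex, litter, a replicate block, leaving out each library, gamma-relative scaling, other minima of allelic counts, another flanking window and first-exon lengths were tried. The main test was run over both sexes on simulated data. It called 48 of 96 genes (50%) with a true log2 fold change of 1 in size, and 97 of 98 at 3. Of genes without a true change it called 7 of 16567. The members and gene lists were chosen with earlier results of these data known. All 7 members were named, and of each other list those past the threshold or else the lowest 2 by p, with the 5 genes most like the summed gamma-B level and Smchd1. Pcdhgc4 was added for its separation between the genotypes, after its values had been seen.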

Additional observations from a re-analysis of the deposited data

How the results depend on the processing

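The number of members called was 0 under each edgeR alternative, including leaving out each library, and in limma-voom with sample quality weights, which changes the test and the weights together, while DESeq2 called 1 (Pcdhgb6) over both sexes and 1 in males. The number of genes called over both sexes was 14, and it was 113 in DESeq2, 29 in limma-voom, 33 without a filter, 9 with at least 10 counts in every library, 3 with litter and 2 to 12 leaving out each library (5 and 2 without female E147A/+ replicates 1 and 2, 3 and 4 without female +/+ replicates 1 and 2, 6 and 7 without male E147A/+ replicates 1 and 2, 9 without male +/+ replicate 3). In females it was 2, and 46 in DESeq2, 8 without a filter, 1 in the fit of that sex alone, 0 with litter (286 unadjusted) and 0 to 2 leaving out each library. In males it was 4, and 48 in DESeq2, 9 in limma-voom, 14 without a filter, 1 in the fit of that sex alone, 2 with litter and 1 to 4 leaving out each library. For the interaction it was 0, and 2 in DESeq2, 1 with litter and 0 to 1 leaving out each library. Between the sexes in +/+ it was 5, and 0 with at least 10 counts in every library (203 unadjusted in edgeR).

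Same-numbered libraries are different embryos, of which male replicates 2 and 3 also share a litter (1 and 3) across the genotypes and the others do not, and deviations of same-numbered libraries had correlations of -0.297 in females and of -0.226, 0.384 and 0.0295 in males, so the numbers were not treated as pairing the samples. With the replicate block, genes called were 5 over both sexes, 0 in females (836 unadjusted) and 2 in males. With the female numbers crossed, a pairing added after seeing the data, they were 6 over both sexes and 0 in females (1020 unadjusted). With the Cast haplotype as a covariate in the 4 females, also added then, 151 genes and 0 members were called.

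Over 19 alternatives for both sexes, including leaving out each library, Pcdhgb1, Pcdhgb2, Pcdhgb4, Pcdhgb6 and Pcdhgb7 kept their direction in all, Pcdhgb5 in 14 and Pcdhgb8 in 13. Reversed log2 fold changes follow. For Pcdhgb5 these were 0.00478 over both sexes and 0.0477 in females in limma-voom, and in females 0.00236 without a filter, 0.0123 with at least 10 counts, 0.0125 with females alone, 0.0139 with the replicate block, 0.0136 with crossed numbers and 0.0251 with the haplotype covariate. In limma-voom the interaction of Pcdhgb1 was 0.0323. With litter, Pcdhgb8 was 0.00899 over both sexes and 0.42 in males, Pcdhgb5 0.10 in males, and Pcdhgb1 -0.0528 and Pcdhgb4 -0.11 in females. With litter the interaction was -0.48 for Pcdhgb4, -0.81 for Pcdhgb5 and -0.83 for Pcdhgb8, and the sex effect 0.39 for Pcdhgb4 and 0.31 for Pcdhgb5. Relative to summed gamma counts, Pcdhgb5 was 0.14 and Pcdhgb8 0.0263. The cause was not tested.

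Leaving out each library, Pcdhgb5 ranged from -0.28 to 0.22 over both sexes, -0.46 to 0.54 in females and -0.28 to 0.14 in males, and Pcdhgb8 from -0.71 to 0.40, -1.22 to 0.99 and -0.63 to 0.33. The interaction ranged from -0.385 to 0.173 for Pcdhgb1, -0.0784 to 1.1 for Pcdhgb2, -0.39 to 0.99 for Pcdhgb4, -0.36 to 0.65 for Pcdhgb5, 0.35 to 0.77 for Pcdhgb6 (no change of sign), -0.99 to 0.44 for Pcdhgb7 and -1.03 to 1.18 for Pcdhgb8. The sex effect in +/+ ranged from -0.0676 to 0.49, -0.65 to 0.57, -0.88 to 0.51, -0.61 to 0.33, -0.32 to 0.11, -0.73 to 0.71 and -0.73 to 0.945 for Pcdhgb1, Pcdhgb2, Pcdhgb4, Pcdhgb5, Pcdhgb6, Pcdhgb7 and Pcdhgb8 in turn. A window of 2 Mb gave the same haplotype calls, with median Cast shares of 47.7%, 47.0%, 0.239% and 0.215% in place of 47.8%, 46.8%, 0.264% and 0.314%. The other minima of allelic counts tried (5 and 20) could not change a share, since all lie below the counts of every member. Depth limits the allelic shares, which rest on 73 to 426 allelic counts per member and library.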
